A study of Mus musculus with 2 samples.

Results

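Krt6a, Krt6b, Krt16, S100a8, S100a9 and Defb3 were described across the keratinocyte states of 2 single-cell libraries of mouse skin epidermis. These 6 genes, called here the stress keratins and alarmins, were taken by name from among 32286 features, by a list drawn up with earlier results of these data known. Control epidermis carried the alleles Involucrin-CREER and Rosa-SmoM2. SmoM2 is a constitutively active form of Smoothened, the transducer of hedgehog signals, and CREER is an inducible Cre under the involucrin promoter. The second genotype, called GOF below, carried both of these alleles and in addition Krt14rtTA and the Survivin GOF allele. Survivin is encoded by Birc5, and the study asked what it does in the formation of basal cell carcinoma. Per the labels, cells of both genotypes were sorted for high α6 integrin and YFP, the tag on SmoM2, and against CD34. The series text adds a Survivin-mCherry tag for the GOF cells. With 1 library per genotype, no test between genotypes was possible, and all intervals below are 95% intervals that cover counting error only. Ages, sexes, treatment times and the number of mice are not given in the sources used here.

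Keratin 6 isoforms are type II keratins that pair with type I keratins such as keratin 16. In resting skin they are known mainly from the hair follicle, the nail bed and footpads, and interfollicular keratinocytes switch them on after wounding and in psoriasis. S100a8 and S100a9 encode the subunits of calprotectin, a calcium- and zinc-binding complex that neutrophils hold in large amounts and that stressed keratinocytes also make. It is called an alarmin because released calprotectin acts on innate immune receptors. Defb3 encodes a secreted antimicrobial β-defensin.

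In the mm10 build with GENCODE vM21 all 6 genes are annotated as protein-coding. Krt6a lies on the minus strand at chr15:101689910-101694307 and overlaps the antisense gene Gm49428. Krt6b lies beside it, on the same strand, at chr15:101676023-101680287. Krt16 is at chr11:100246091-100248902 on the minus strand. S100a8 (chr3:90668978-90670035, plus strand) and S100a9 (chr3:90692632-90695721, minus strand) are neighbours, and Defb3 is at chr8:19293360-19295291 on the plus strand. Reads of near-identical genes can be lost or split in counting, and the coding sequences of Krt6a and Krt6b were 97.6% identical over 1665 aligned columns. Their last 90 coding bases are shown because the results below separate these copies. Capitals mark bases that the alignment did not match, 3 in Krt6a and 6 in Krt6b:
Krt6a: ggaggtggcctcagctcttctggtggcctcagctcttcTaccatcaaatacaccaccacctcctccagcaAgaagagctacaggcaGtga
Krt6b: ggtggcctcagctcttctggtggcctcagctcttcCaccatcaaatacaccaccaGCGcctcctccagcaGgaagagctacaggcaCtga
The transcripts diverged past the stop codon: of 451 windows of 50 bases in the last 500 bases of Krt6a, 0 occurred anywhere in the protein-coding transcripts of Krt6b. Krt16 shared 6 of 451 such windows (1.33%) with Krt14 and 6 with Krt17, the abundant basal and follicle keratins. S100a8 and S100a9 had 48.0% identical coding columns and shared 0 windows.

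RefSeq promoter windows (GRCm38.p6) were found for 3 of the 6 genes, the alarmins and the defensin, and are shown because the largest pooled differences between genotypes below are in these genes. Krt6a, Krt6b and Krt16 had no entry. The 150 bases before the RefSeq start are shown 5′ to 3′ on each gene's own strand, with matched motifs in capitals. They lie at chr3:90668921-90669070 (plus) for S100a8, chr3:90695722-90695871 (minus) for S100a9 and chr8:19293211-19293360 (plus) for Defb3:
S100a8: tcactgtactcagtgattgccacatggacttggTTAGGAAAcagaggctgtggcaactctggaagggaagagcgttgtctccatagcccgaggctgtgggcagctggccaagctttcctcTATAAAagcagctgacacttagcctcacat
S100a9: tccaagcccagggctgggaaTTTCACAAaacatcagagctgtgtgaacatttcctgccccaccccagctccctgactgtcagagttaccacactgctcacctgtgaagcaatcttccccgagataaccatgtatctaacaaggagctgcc
Defb3: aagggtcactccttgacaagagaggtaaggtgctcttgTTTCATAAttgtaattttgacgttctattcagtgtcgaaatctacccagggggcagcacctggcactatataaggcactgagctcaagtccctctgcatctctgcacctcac
The C/EBP letters TTNNGNAA, searched on both strands, matched in all 3 windows, with first bases at -117 (S100a8), -130 (S100a9) and -112 (Defb3) from the start. They also matched in 22.7% of all 32851 RefSeq promoter windows of this length. The TATA box letters TATAAA matched at -30 in S100a8 and in 7.57% of all windows. The AP-1 letters TGANTCA matched in 4.24% of all windows and in none of these 3. The matches do not overlap one another.

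The deposited matrices held 146216083 control and 126329382 GOF UMIs. UMIs (unique molecular identifiers) count transcripts by their 3′ ends, so levels are given as CPM, UMIs scaled to a fixed library total, and are not divided by gene length. After filtering, 10294 control and 6494 GOF cells remained, with medians of 7648 and 12324.5 UMIs, and 20 kept barcodes occurred in both libraries. Of 25 clusters, cluster 8 was melanocyte-like and cluster 22 held antigen-presenting cells led by Cd74 and Cd207. The other 23 held 10098 control and 6318 GOF keratinocytes. Control keratinocytes had Birc5 at 55.1 CPM, and GOF keratinocytes at 793. Krt14, the basal keratin, was at 12896 and 15311 CPM. Sex calls from Xist and Y-linked genes also separated the libraries: 7330 control keratinocytes were called male and 30 female, against 1805 and 3607 in GOF. There were 6 keratinocyte clusters with fewer than 20 cells in 1 library, among them clusters 9 (1720 control, 4 GOF cells) and 7 (10 control, 706 GOF cells). Genotype therefore cannot be told apart from sex and from library.

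All members except Defb3 were highest in the same small cluster in both libraries, leaving aside cluster 18 with its 1 GOF cell. No member or listed gene had been used to form the clusters. Cluster 23 held 83 control cells, 0.822% of control keratinocytes (Clopper-Pearson interval 0.655 to 1.02%), and 19 GOF cells, 0.301% (0.181 to 0.469%). After the members, it was led by Slpi, Sprr2d, Lce3c, Csta3 and Sprr1b, a protease inhibitor, cornified envelope precursors and a cystatin family gene. None of the fixed cell type markers was among its 10 leading genes, and it was left unnamed. In it Krt6a was at 6945 CPM in control and 10526 in GOF cells, Krt6b at 3614 and 9434, and Krt16 at 6696 and 15802. S100a8 was at 1223 CPM in control and 11086 in GOF cells, and S100a9 at 1616 and 14337. Krt17, a related type I keratin, was at 8436 CPM there in control cells and 7841 in GOF cells, against 3490 and 2004 in the other keratinocytes. Median UMIs per cell in cluster 23 were 7040 in control and 28198 in GOF cells, so its cells did not have like depth in both libraries.

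**Figure D1:**
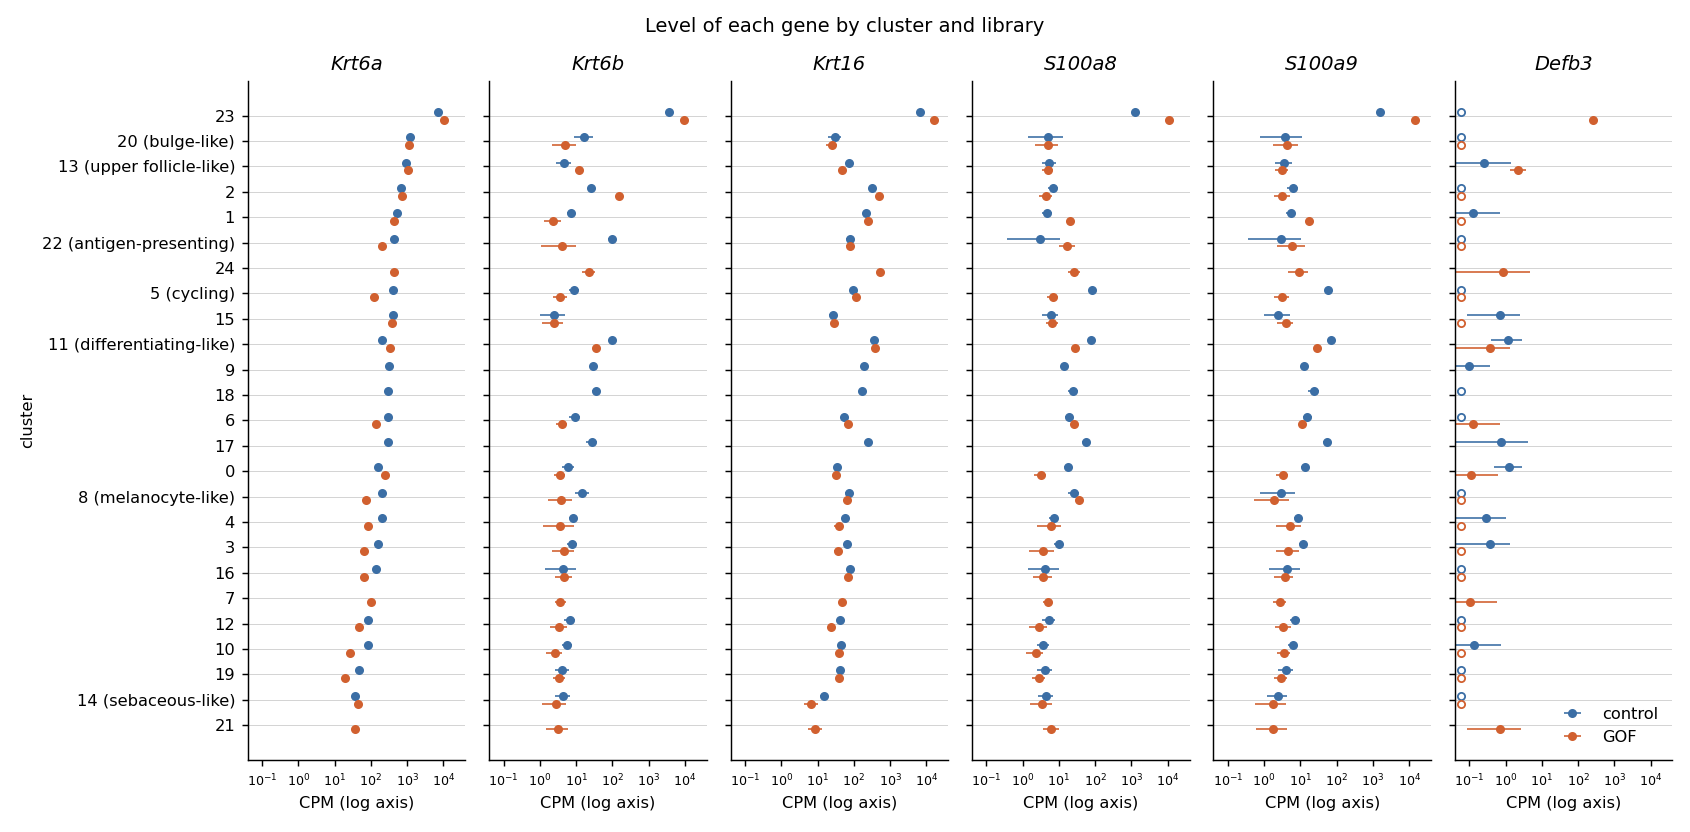
Level of each gene (CPM, log axis, points with exact Poisson intervals) in each cluster with at least 50 cells in a library, and in cluster 23 of both, by library. Open circles at the left edge stand for 0 UMIs. Cluster 23 stands above every other cluster shown for 5 genes, while Krt6a alone is also near 1000 CPM in clusters 20 and 13.

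Krt6a was the most widely detected of the 3 keratins. Outside cluster 23 it was highest in the bulge-like cluster 20, at 1173 CPM in control and 1136 in GOF cells, and in the upper follicle-like cluster 13, at 922 and 1060. Cluster 2, led by Krt84 and Krt36, followed at 659 and 699 CPM. Its lowest levels were 37.3 CPM in the control sebaceous-like cluster 14 and 19.2 CPM in GOF cluster 19. Cluster 23 held 15.9% of the control and 16.6% of the GOF keratinocyte UMIs of Krt6a. Cluster 13 held 10.4% of control and 25.2% of GOF UMIs of Krt6a. The largest control share, 18.1%, lay in cluster 9, led by Ccer2 and Slc39a1 and nearly absent from GOF, where Krt6a was at 319 CPM and was detected in 56.3% of cells thinned to 3000 UMIs. Clusters 1 and 2 held 11.6% and 10.3% of control UMIs. Krt6a was thus spread over many clusters, and no cell of cluster 9 had more than 37 UMIs. Control barcodes with fewer than 1000 UMIs had Krt6a at 292 CPM, close to its level in cluster 9. Whether cluster 9 is a state of its own was not tested. At Leiden resolution 0.5 the control share of the highest cluster was 7.82%.

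Krt6b, its near-identical neighbour, had most of its UMIs in cluster 23, with 63.5% of the control and 70.0% of the GOF total. Of the control UMIs, 12.8% lay in cluster 9 (29.3 CPM, 8.27% of thinned cells) and 8.90% in cluster 11. Control barcodes with fewer than 1000 UMIs had Krt6b at 46.6 CPM, above its level in cluster 9. In the control library the next levels were 97.1 CPM in the differentiating-like cluster 11 and 36.4 in cluster 18. The follicle-like states that carried Krt6a had little of it. In cluster 13 there were 0.496 Krt6b UMIs per 100 Krt6a UMIs in control cells and 1.12 in GOF cells, and in cluster 20 1.41 and 0.433. In cluster 23 the same ratio was 52.0 in control and 89.6 in GOF cells. The low ratio in clusters 13 and 20 also bounds how many Krt6a reads could have been counted as Krt6b there. In GOF cluster 2, Krt6b reached 157 CPM against 25.2 in control, but 826 of the 849 UMIs came from a single cell.

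Krt16, the type I partner, lay between these patterns. Cluster 23 held 30.3% of its control and 41.7% of its GOF UMIs. Outside it Krt16 was at 360 and 388 CPM in the differentiating-like cluster 11, at 323 and 495 in cluster 2, and at 214 and 240 in cluster 1, which was led by Mt4 and Selenbp1. Cluster 9 held 21.8% of control Krt16 UMIs, the most after cluster 23, at 195 CPM with 41.3% of thinned cells positive. Control barcodes with fewer than 1000 UMIs had Krt16 at 196 CPM. In the GOF cells of cluster 24, led by interferon-induced genes, it was at 538 CPM. It was low where Krt6a was high: cluster 20 had 30.6 CPM in control and 24.6 in GOF cells, or 2.61 and 2.16 Krt16 UMIs per 100 Krt6a UMIs. In cluster 23 that ratio was 96.4 and 150.1.

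In GOF, S100a8 and S100a9 were more concentrated in cluster 23 than the keratins, while in control Krt6b was more concentrated there than either. Cluster 23 held 37.1% of control and 84.1% of GOF UMIs of S100a8. For S100a9 it held 47.2% and 88.4%. These shares depend on the clustering: with the members allowed among the clustering genes, the highest cluster held 59.98% and 87.7% of S100a8 and 66.3% and 90.2% of S100a9. Cluster 9 held 10.6% of control S100a8 UMIs and 9.31% of those of S100a9. Elsewhere both genes were low, with medians over clusters of 7.13 and 4.91 CPM for S100a8 and 8.05 and 3.47 for S100a9, control and GOF. The differentiating-like cluster 11 had 76.0 CPM of S100a8 and 68.1 of S100a9 in control cells, and 27.9 and 29.5 in GOF cells. In control cluster 17, whose leading genes are the root sheath keratins Krt71 and Krt75, the levels were 56.7 and 52.9 CPM with a median of 1 UMI of each per cell. The 82.0 CPM of S100a8 in control cluster 5, a cycling cluster, rested on 1 cell with 306 of 463 UMIs.

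The calprotectin subunits followed each other closely. Cluster 23 had 75.6 S100a8 UMIs per 100 S100a9 UMIs in control and 77.3 in GOF cells. Over 39 populations (a cluster in 1 library with at least 50 cells) the Pearson correlation of log2(CPM + 10) between S100a8 and S100a9 was 0.98, and 0.95 over 38 without cluster 23. The ratio was not the same everywhere. It was 234 in GOF cluster 6 (211 and 90 UMIs) and 282 in GOF cluster 24 (31 and 11 UMIs). The melanocyte-like cluster, outside the keratinocytes, had S100a8 at 25.6 CPM (36 UMIs) in control and 36.4 (76 UMIs) in GOF cells, but 4 UMIs of S100a9 in each.

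Defb3 was close to absent: 24 UMIs in 18 control keratinocytes and 161 UMIs in 12 GOF keratinocytes. In GOF, 88 and 46 of those UMIs lay in 2 cells of cluster 23, and 18 in a cell of cluster 13. In control cluster 23, 0 UMIs were counted in 83 cells. With 3 counts taken as the limit for 0, in place of an exact interval, this allows a level of up to 3.75 CPM. The share of cells with a UMI may then be up to 3.61%. Against that approximate limit the 256 CPM in GOF cluster 23 was 68.3-fold higher, a value that 2 cells decide.

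Cluster 23 was itself uneven, as the plot of UMIs per cell shows. Its 83 control cells had from 2 to 555 Krt6a UMIs (median 24), 0 to 462 of Krt6b (median 4) and 0 to 629 of Krt16 (median 12). Its 19 GOF cells had 0 to 963 (median 236), 0 to 1307 (median 160) and 0 to 1554 (median 384). S100a8 ranged less widely than the keratins in control and more widely in GOF, with 0 to 154 S100a8 UMIs in control cells (median 1) and 0 to 2145 in GOF cells (median 46). Its cells split around 20 Krt6b UMIs, a limit chosen after the values were seen. In control, the 16 cells at or above it had 14242 CPM of Krt6a, 11982 of Krt6b and 18698 of Krt16, and the other 67 had 4115, 370 and 2042. In GOF, 13 cells at or above it had 13213, 12124 and 19642 CPM. These cells were selected on Krt6b, at median depths of 13652 and 29200 UMIs, so their keratin levels are no comparison between genotypes. S100a8 was at 3928 CPM in the 16 control and 14206 in the 13 GOF cells, and S100a9 at 5096 and 18426. In GOF cluster 23, 2 cells with 2145 and 1707 UMIs held most of the 5839 S100a8 UMIs.

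**Figure D2:**
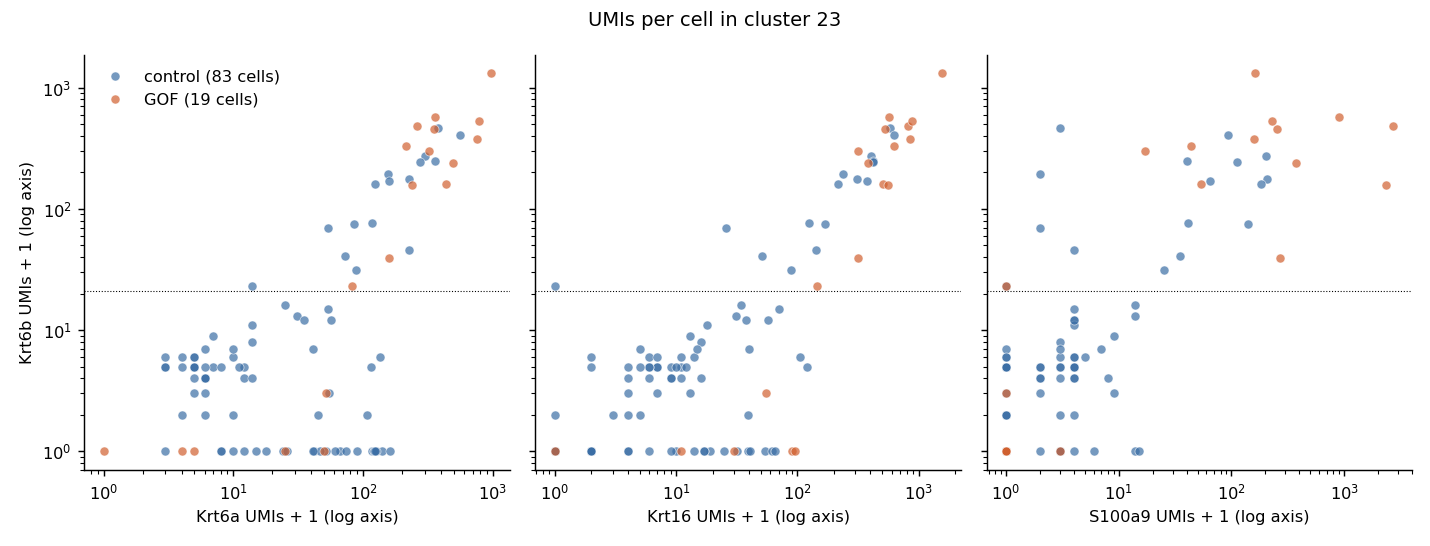
UMIs per cell in cluster 23, each point a cell, with Krt6b (vertical) against Krt6a, Krt16 and S100a9 (horizontal), all as UMIs + 1 on log axes. The dotted line marks 20 Krt6b UMIs, above which 16 control and 13 GOF cells lie. Krt6b rises with Krt6a and Krt16 above that line, while S100a9 is 2 UMIs in a control cell with 462 of Krt6b and 2718 in a GOF cell with 478.

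Across all keratinocytes 24 control cells (0.238%) and 17 GOF cells (0.269%) had at least 20 Krt6b UMIs. The 16 control and 13 GOF cells in cluster 23 had 0 YFP UMIs, which by the same limit of 3 counts allows up to 13.4 and 7.32 CPM. Over all keratinocytes YFP was at 12.3 and 7.90 CPM, so lower YFP was not detectable at this depth in the 16 control cells. For the 13 GOF cells the approximate limit lies close to the keratinocyte level, and no lower YFP is read from it. The other 67 control cells of cluster 23 had 33 YFP UMIs, 57.3 CPM. High alarmin cells overlapped with these cells but were not the same. Of 21 control cells with at least 20 S100a8 UMIs, 13 also had at least 20 Krt6b UMIs and 6 had 0, and in GOF these counts were 18, 13 and 3. The control cell with the most S100a8 (306 UMIs, with 159 of S100a9) had 4 Krt6a, 0 Krt6b and 0 Krt16 UMIs.

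The comparison between genotypes depends on whether molecules or cells are counted. Pooled over keratinocytes, Krt6a was at 354 CPM in control and 341 in GOF, a log2 ratio of -0.05 (-0.07 to -0.03). Krt6b was at 46.0 and 72.4 CPM, 1.57-fold higher in GOF with a log2 ratio of 0.65 (0.60 to 0.71). Krt16 was at 179 and 203 CPM, with a log2 ratio of 0.19 (0.16 to 0.22). S100a8 was at 26.6 and 70.8 CPM, 2.66-fold higher in GOF, with a log2 ratio of 1.41 (1.35 to 1.48). S100a9 was at 27.7 and 87.1 CPM, 3.15-fold higher, with a log2 ratio of 1.65 (1.59 to 1.72). Defb3 was at 0.243 and 1.64 CPM, with a log2 ratio of 2.76 (2.13 to 3.44). Thus 3 of 6 members were at least 2-fold higher in GOF and 0 were 2-fold lower, where 2.37% of 14575 genes with at least 50 UMIs were 2-fold higher and 2.39% 2-fold lower.

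Shares of cells were lower in GOF for 5 members. With each cell thinned to 3000 UMIs, which left out 91 control and 10 GOF keratinocytes, S100a8 was detected in 3.11% of control and 1.62% of GOF keratinocytes. S100a9 was detected in 3.23% and 1.60%, Krt6b in 4.35% and 1.35%, Krt16 in 19.9% and 12.6%, and Krt6a in 33.5% and 22.02%. Without thinning the shares were 7.18% and 5.35% for S100a8, 7.28% and 5.25% for S100a9, 9.55% and 5.37% for Krt6b, 36.9% and 30.3% for Krt16, and 53.4% and 43.5% for Krt6a. Defb3 was detected in 0.0700% and 0.0793% of thinned cells. Cluster 9 held 1720 of the 10098 control keratinocytes, and 4 GOF cells. In control it gave 968 of 3354 thinned cells with Krt6a, 710 of 1991 with Krt16 and 142 of 435 with Krt6b. For S100a8 and S100a9 it gave 81 of 311 and 85 of 323.

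The UMIs were held by fewer cells in GOF for every member, in a library with fewer and deeper keratinocytes (6318 against 10098, median 12316 against 7639 UMIs). The highest 1% of cells held 40.2% of GOF and 31.2% of control Krt6a UMIs. For Krt16 these shares were 71.1% and 49.5%, for S100a8 96.0% and 75.1%, and for Defb3 100% in each. In GOF, 2 cells held over 50% of the S100a8 UMIs and the same 2 cells over 50% of the S100a9 UMIs, against 11 and 10 cells in control. Krt6b reached 50% with 5 GOF and 9 control cells. Krt16 reached it with 16 and 106 cells, and Krt6a with 108 and 297. The GOF cell with the most S100a8 and S100a9 had 2145 and 2718 UMIs, 30.9% and 31.8% of the library's keratinocyte total. It was a male-called cell of cluster 23 with 40697 UMIs in all. The second such cell, also male-called, had 1707 and 2370 UMIs. Each of these 2 cells had a doublet score of 0.0874, against a median of 0.0394 over GOF keratinocytes. The 13 GOF cells of cluster 23 with at least 20 Krt6b UMIs had a median score of 0.0811. Whether any of them are doublets was not tested. The highest GOF cell for Krt6a, Krt6b and Krt16 was another cell, female-called, with 963, 1307 and 1554 UMIs.

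**Figure D3:**
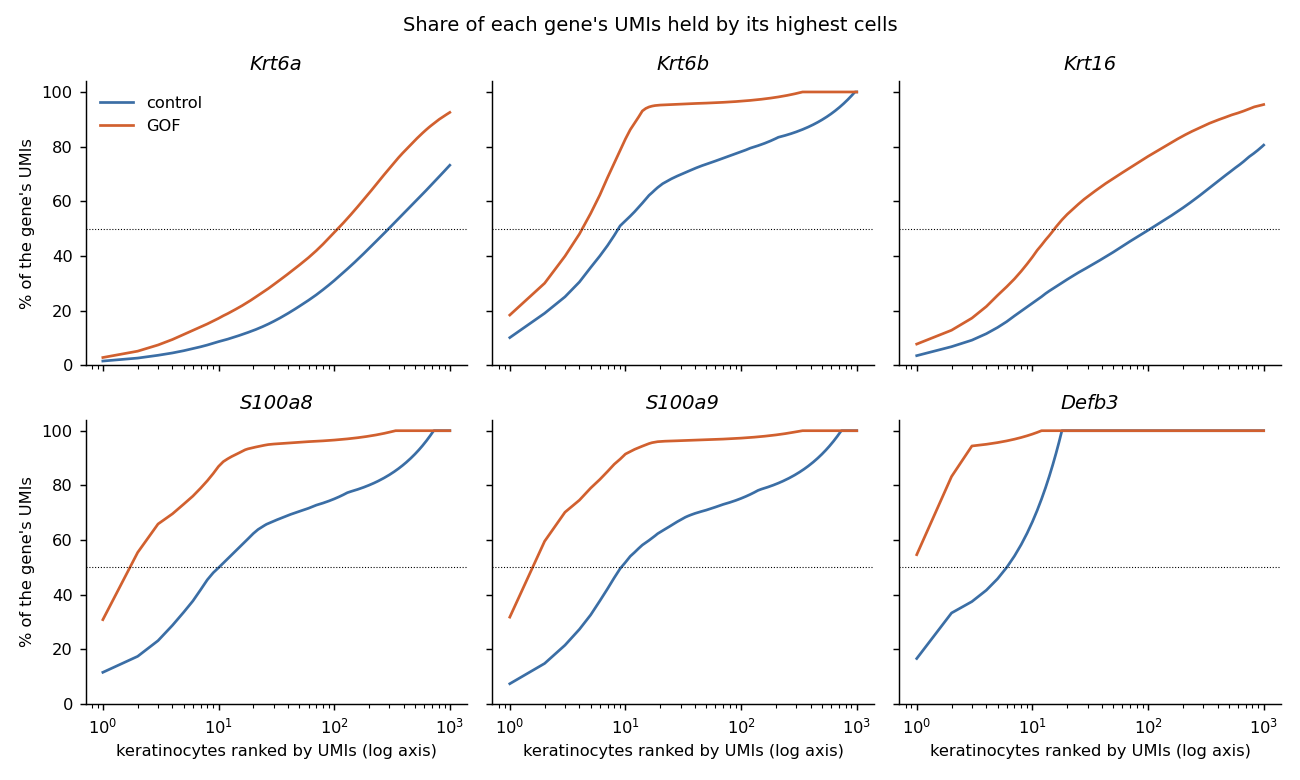
Cumulative share (%) of each gene's keratinocyte UMIs against cells ranked from the highest down (log axis), by library. The dotted line marks 50%, which GOF crosses at fewer cells than control in all 6 panels.

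Without cluster 23, an alternative chosen after seeing the data, the log2 ratio was -0.57 for S100a8 (-0.68 to -0.46) and -0.53 for S100a9 (-0.65 to -0.42). The pooled alarmin ratio therefore turned from higher to lower when 83 control and 19 GOF cells were left out. Krt16 turned to -0.08 (-0.11 to -0.04), and Krt6b fell to 0.37 (0.28 to 0.46). For Defb3, leaving out the 3 highest cells of each library gave -0.72 (-2.10 to 0.56), an interval that holds 0. Krt6a was near 0 with and without cluster 23, at -0.05 and -0.07.

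**Figure D4:**
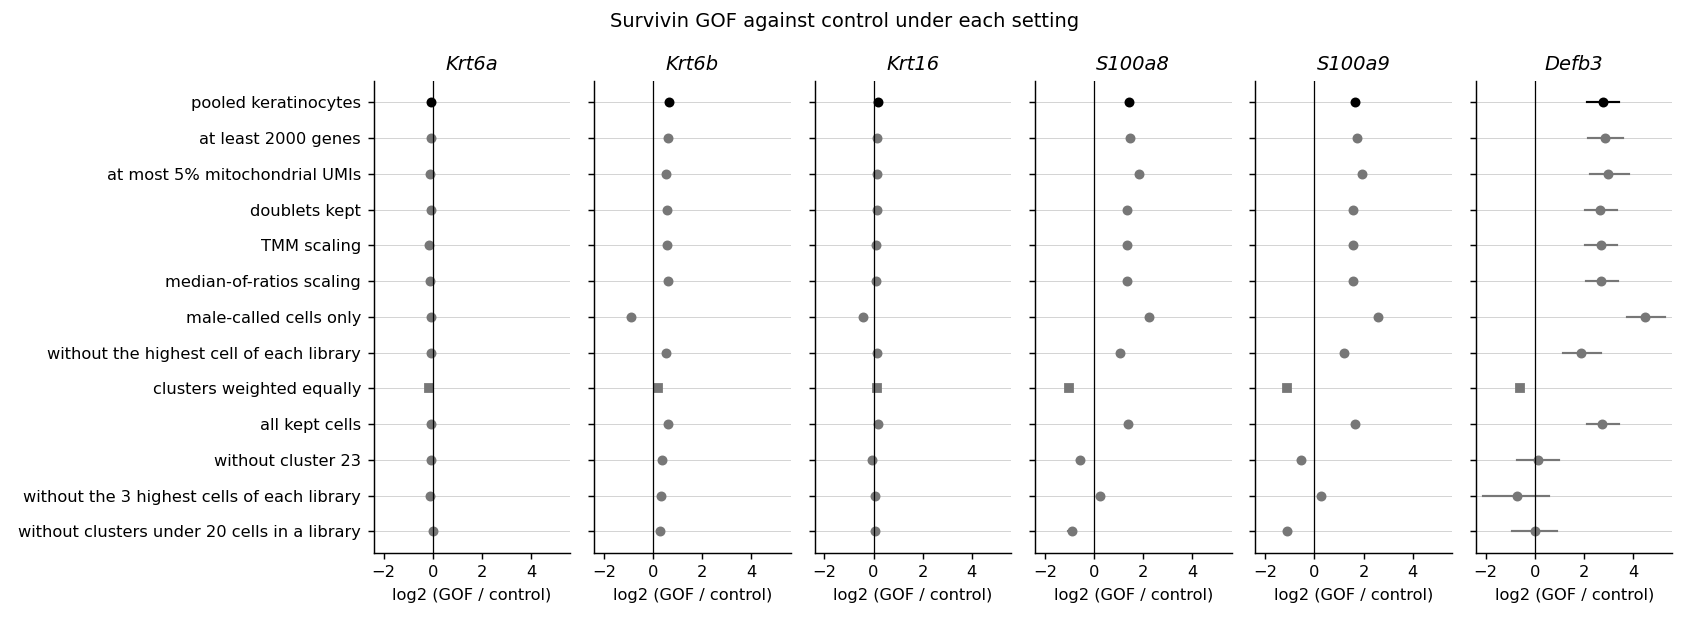
Log2 of the GOF to control ratio for each gene under each setting, with exact conditional intervals for counting error where they could be computed (squares have none). Krt6a stays between -0.15 and 0.01, while S100a8 and S100a9 lie above 0 with cluster 23 and at -0.57 and -0.53 without it.

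Sex calls moved with these values, and their part in them was not tested. In male-called keratinocytes, S100a8 was at 29.9 CPM in control and 142 in GOF, and S100a9 at 30.7 and 184. In female-called GOF keratinocytes they were at 43.9 and 47.9 CPM. Krt6b had the reverse order, at 25.4 CPM in male-called and 103 in female-called GOF keratinocytes, against 47.7 in male-called control keratinocytes. Its log2 ratio within male-called cells was -0.91 (-1.02 to -0.79). The 2 male-called cells named above carry the S100a8 value. They also held 478 and 156 of the 729 Krt6b UMIs of male-called GOF keratinocytes. Of the 5575 Krt6b UMIs of female-called GOF keratinocytes, 1 cell held 1307 and another 826. The Krt6b levels by sex call thus rest on few cells. The 30 female-called control cells are too few to compare.

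Within states, Krt6a, Krt6b and the alarmins were more often 2-fold lower than 2-fold higher in GOF. In 16 keratinocyte clusters with at least 50 cells in each library, Krt6a was at least 2-fold lower in GOF in 7 and 2-fold higher in 0. Over all genes with at least 50 UMIs in these clusters, 1.41% of gene and cluster pairs were 2-fold lower and 1.16% 2-fold higher. Among the clusters with at least 50 UMIs of the gene, Krt6b was 2-fold lower in 6 and higher in 2 of 12, S100a8 lower in 4 and higher in 1 of 9, and S100a9 lower in 5 and higher in 1 of 10. Krt16 was 2-fold lower in 1 of 16. These counts were not limited to levels above the melanocyte-like cluster, which had 208 and 75.2 CPM of Krt6a and 14.9 and 3.83 of Krt6b, control and GOF. Among the clusters with 2-fold less in GOF, control Krt6a was above 208 CPM only in clusters 5 and 6 (398 and 291 CPM). Control Krt6b was above 14.9 CPM only in cluster 11. The largest drop of Krt6a was in cycling cluster 5, from 398 to 125 CPM (log2 ratio -1.67). Krt6a did not move this way everywhere: it was higher in GOF in the differentiating-like cluster 11 (207 and 344 CPM, log2 ratio 0.74) and cluster 0 (159 and 252 CPM, 0.66), and in clusters 13 and 20 it changed by less than 1.5-fold. In cluster 11, Krt6b moved the opposite way, from 97.1 to 35.0 CPM. Of those 192 GOF UMIs, 171 came from 1 cell. Cluster 1 was the 1 cluster with 2-fold more S100a8 and S100a9 in GOF (4.76 and 20.4 CPM of S100a8), and 72 of its 133 GOF UMIs came from 1 cell.

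Within cluster 23, Krt6b, Krt16, S100a8 and S100a9 were at least 2-fold higher in GOF. Of 3427 genes there, 4.61% were 2-fold higher and 9.54% 2-fold lower. Defb3, with 0 control UMIs, is left out, as 2 GOF cells held 88 and 46 of its 135 UMIs. The same 2 cells held 2145 and 1707 of the 5839 GOF S100a8 UMIs. The mix of cells also differed, with 13 of 19 GOF and 16 of 83 control cells at or above 20 Krt6b UMIs. These ratios are therefore no measure of the level in like cells. The log2 ratio of Krt6b there was 1.38 and that of Krt6a 0.60. With each cell thinned to 3000 UMIs, 10 of 19 GOF and 13 of 83 control cells of cluster 23 had at least 10 Krt6b UMIs.

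The same drop appeared in cells that are not keratinocytes. In the melanocyte-like cluster Krt6a was at 208 CPM in control and 75.2 in GOF (log2 ratio -1.47), and in the antigen-presenting cluster at 433 and 207 (-1.07). After thinning, 29.0% of control and 15.1% of GOF melanocyte-like cells had a Krt6a UMI, with median depths of 8137 and 11711.5 UMIs. The keratinocyte shares were 33.5% and 22.02% at median depths of 7639 and 12316. For Krt6b the melanocyte-like shares were 4.35% and 1.59%, and the keratinocyte shares of 4.35% and 1.35% were no higher. For S100a8 they were 5.80% and 19.05%, above the keratinocyte shares of 3.11% and 1.62%. For Krt16 they were 27.5% and 7.14%, and for S100a9 1.45% and 0.794%. The melanocyte-like cluster had 36 and 76 UMIs of S100a8 but 4 and 4 of S100a9, and whether it is a neutral reference for S100a8 was not tested. For the other genes, shares at or below the melanocyte-like value cannot be told apart from background here. Krt6a in clusters 13 (55.2% and 60.8%) and 20 (66.3% and 73.4%) was above it. Krt6a (56.3%) and Krt6b (8.27%) in control cluster 9 were above it too, but that cluster had markers of several lineages near their level in the other cells. Its summed melanocyte markers were at 250.8 CPM against 262.6 in the other cells, and its sebaceous gland markers at 1288 against 1496. Whether the melanocyte-like value is a limit for background in cluster 9 was not tested. Barcodes with fewer than 1000 UMIs had Krt6a at 292 CPM in control and 459 in GOF, S100a8 at 43.9 and 70.9, and S100a9 at 32.9 and 27.02. How much free RNA adds to each level was not tested.

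Neutrophils carry large amounts of S100a8 and S100a9, so their markers were read in the same cells. Of 11 neutrophil markers, 8 in control and 9 in GOF were at 0 in cluster 23, and Csf3r, Retnlg, Elane and Ngp were at 0 in all keratinocytes of both libraries. The summed level was 534 CPM in control cluster 23 and 243 in GOF. Mmp9, a protease that migrating keratinocytes also make, gave 425 of 427 and 122 of 128 of these UMIs. In GOF the other 6 were of Cxcr2, at 11.4 CPM against 0.275 over all GOF keratinocytes. In control, 422 of the 427 marker UMIs lay in the 67 cells of cluster 23 with fewer than 20 Krt6b UMIs, and 5 in the 16 other cells. In GOF, 75 of the 128 lay in the 6 cells below that limit and 53 in the 13 other cells. Whether neutrophil RNA gave any of these UMIs was not tested. The 2 GOF cells highest in S100a8 had 0 and 1 neutrophil marker UMI. Over all keratinocytes with at least 20 S100a8 UMIs, 2 of 21 control cells had a neutrophil marker UMI (17 UMIs in all) and 9 of 18 GOF cells (160 UMIs). Krt14 was at 24619 CPM in the 13 GOF cells and 25651 in the 16 control cells of cluster 23 with at least 20 Krt6b UMIs. Camp, counted in this list and among the antimicrobial genes, had 0 UMIs in cluster 23.

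Genes known from wounded and hyperproliferative keratinocytes were high in cluster 23. Of 16 measured genes of that list, 15 were at least 2-fold higher in control cells of cluster 23 than in the other control keratinocytes on the scale of CPM + 1, with a median log2 difference of 3.85. Over all 14575 genes 4.82% were, with a median of -0.17. The envelope precursors Sprr1a and Sprr1b were at 663 and 1458 CPM there in control, against 18.4 and 43.1 elsewhere. The EGF receptor ligands Hbegf and Areg were at 258 and 165 CPM against 11.1 and 1.74. In GOF cluster 23, Sprr2d was at 3260 CPM against 215 in control, while Areg was at 60.8. Serpinb3a was the 1 gene of the list that was not higher in control. The cluster was compared with cells from which it had been separated by clustering, so these are descriptions.

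Of 9 measured antimicrobial genes 5 passed the same fold in control cluster 23. Slpi, a protease inhibitor, was at 2125 CPM against 8.87, and in GOF at 2567 against 5.004. Defb14, another β-defensin, was at 37.5 CPM in control and 152 in GOF cluster 23. Defb6 did not follow them, at 196 CPM in control cluster 23 against 319 elsewhere. Among 17 listed cytokines and chemokines 9 were measured, and 5 of these passed the fold in control. The alarmin cytokine Il33 was at 253 CPM in control and 695 in GOF cluster 23, and Cxcl1 at 7.50 and 9.49. Ccl20, Ccl2 and Il24 were lower in GOF cluster 23. They were at 30.004, 27.5 and 21.3 CPM in control cluster 23, and at 0, 0 and 3.80 in GOF. Among the interleukin 17, interleukin 1 and oncostatin receptors and their transcription factors, 3 of 20 passed the fold in control (Cebpd, Junb and Fos). Of the calprotectin receptors, 0 of 4 passed it.

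Between genotypes most members of each list did not pass 2-fold, and over all genes 4.76% passed it in either direction. In pooled keratinocytes 3 of 16 wound genes were 2-fold higher in GOF (Sprr2d 1.86, Sprr2e 3.13 and Klk6 1.52 as log2 ratios) and 1 lower (Areg, -1.57), with a median of 0.15 against 0.08 over all genes. In the 19 GOF cells of cluster 23, Sprr2d was at 3260 CPM, Sprr2e at 547 and Klk6 at 218. Outside cluster 23, Sprr2d was lower in GOF, at 3.60 CPM in control and 1.74 in GOF. Sprr2e was at 0.051 and 0.164 CPM there, and Klk6 at 0.886 and 1.54. The antimicrobial genes had 1 of 9 higher (Camp, a cathelicidin, 2.08), with Defb14 at 0.99 and Slpi at -0.47. The cytokines had 1 of 9 lower (Ccl20, a chemokine, -1.50), with Ccl2 at 0.86 and Tnf at -0.38. None of the 20 receptors and transcription factors passed 2-fold, the widest being Nfkbiz (-0.81), Il6ra (0.54) and Nfe2l2 (0.41). Tlr4, a calprotectin receptor with 16 and 34 UMIs, was at 1.10, with Ager at -0.28 and Bsg at -0.13. The other S100 genes had 0 of 11 past 2-fold, with S100b at -0.92, S100a7a at 0.34 and S100a11 at -0.26, so the pooled rise of S100a8 and S100a9 was not seen across that family. Other keratins had 5 of 27 higher and 6 lower, led by the inner root sheath keratins Krt73 (2.24) and Krt25 (1.87) and by Krt23 (1.89).

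The genes whose pattern over the 39 populations was most like each member differed between the Krt6 copies. For Krt6a they were Klf6, Sdc1, Nectin1, Ndrg1 and Fzd6, with Pearson correlations of 0.79 to 0.83, and 0.73 to 0.83 over 38 populations without cluster 23. For Krt6b they were Sprr2h, Dnase1l3, Slc10a6, Alox12b and Gm47128 (0.90 to 0.92, and 0.70 to 0.78 without cluster 23). For Krt16 they were Nat8l, F3, Sprr1b, Sult2b1 and 2610528A11Rik (0.87 to 0.90). S100a8 and S100a9 shared Sprr2d, Stfa2, Csta3 and Cgref1 among their 5, with correlations of 0.85 to 0.92 that were 0.55 to 0.73 without cluster 23. The remaining genes were 2610528A11Rik for S100a8 and Trex2 for S100a9. For Defb3 they were Sdcbp2, Slco2b1, Gm39139, H2-Eb1 and E030044B06Rik, at 0.58 to 0.70 with few UMIs of Defb3 behind them. Krt6b was closer to Krt16 (0.84) than to its copy Krt6a (0.61). The populations share 2 libraries, and these correlations carry no p.

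Detection in the same cell gave another order by share, with Krt6a found beside Krt6b more often than Krt16. Krt6a was also the more widely detected gene, in 33.5% of all thinned control keratinocytes against 19.9% for Krt16. Among thinned keratinocytes with a Krt6b UMI, 52.2% in control and 43.5% in GOF also had Krt6a. Of the cells without Krt6b, 32.7% and 21.7% had it. Among thinned control keratinocytes with a Krt6b UMI, 42.8% also had Krt16 and 14.9% S100a9, against 18.9% and 2.70% of the cells without Krt6b. In GOF the shares were 32.9% and 18.8%, against 12.3% and 1.37%. Krt6b was detected in no larger share of keratinocytes than of melanocyte-like cells, and how many of these pairs are background RNA was not tested. S100a9 was detected in 22.5% of both control and GOF cells with an S100a8 UMI, and in 2.61% and 1.26% of the cells without one.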

How the data were processed

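The deposited values are counts of UMIs per gene and barcode, not normalized; per the file headers the authors used Cell Ranger 6.1.1. Seurat 4.2.0, R 4.3.0 and mm10 appear in the submitters' processing notes; whether counting used strand is not stated there. The control matrix held 24844 barcodes, beside 8046 cells stated in the labels, and the GOF matrix 11438; 84 barcodes occurred in both. Cells with at least 1500 genes and at most 10% mitochondrial UMIs were kept (10993 and 6922). The automatic scrublet threshold marked 0 cells, so the top 6% of scores per library were removed. Cells were clustered (scanpy 1.11.5, 2000 variable genes, 30 components, 15 neighbours, Leiden resolution 1) without the members, all listed genes, Birc5, YFP, mitochondrial, ribosomal and sex genes. UMIs were summed per library and cluster. Ratios have exact conditional intervals, shares Clopper-Pearson intervals. Ratios were tested on simulated data. Per list, the 3 genes with the largest absolute ratio, and per member the 5 most correlated genes, were named by rule; others were named after their values were seen. The members and lists were chosen with earlier results of these data known. TMM factors came from edgeR 4.0.16.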

Additional observations from a re-analysis of the deposited data

How the results depend on the processing

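Values are log2 ratios of GOF to control in keratinocytes, against -0.05 (Krt6a), 0.65 (Krt6b), 0.19 (Krt16), 1.41 (S100a8), 1.65 (S100a9) and 2.76 (Defb3). Only alternatives that moved a value beyond its counting interval or turned its sign are given. With at least 2000 genes per cell, Krt6a was -0.087, Krt16 0.14 and S100a9 1.73. With at most 5% mitochondrial UMIs, Krt6a was -0.13, Krt6b 0.54, Krt16 0.16, S100a8 1.84 and S100a9 1.95. With doublets kept, Krt6b was 0.58, Krt16 0.15 and S100a9 1.59. TMM scaling gave -0.14, 0.57, 0.10, 1.33 and 1.57 for Krt6a, Krt6b, Krt16, S100a8 and S100a9, and median-of-ratios scaling -0.12, 0.59, 0.12, 1.34 and 1.59. With all kept cells Krt6a was -0.074. Male-called cells gave -0.91 for Krt6b and -0.42 for Krt16, both turned, and 2.24, 2.58 and 4.495 for S100a8, S100a9 and Defb3. Without the highest cell of each library, Krt6b was 0.52, Krt16 0.12, S100a8 1.06, S100a9 1.21 and Defb3 1.88. With clusters weighted equally, which leaves out cluster 23, Krt6a was -0.15, Krt6b 0.19 and Krt16 0.13, and S100a8 (-1.02), S100a9 (-1.10) and Defb3 (-0.60) turned.

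The next 3 alternatives were chosen after seeing the data. Without cluster 23, Krt6b was 0.37 and Defb3 0.12, and Krt16 (-0.076), S100a8 (-0.57) and S100a9 (-0.53) turned. Without the 3 highest cells of each library, Krt6a was -0.11, Krt6b 0.34, Krt16 0.054, S100a8 0.24 and S100a9 0.26, and Defb3 (-0.72) turned. Without clusters under 20 cells in a library, Krt6b was 0.28 and Krt16 0.076, and Krt6a (0.011, interval -0.015 to 0.037), S100a8 (-0.91), S100a9 (-1.10) and Defb3 (-0.0075) turned. The settings that leave out cells enter fewer cells by construction. For the others the cause was not tested. Of the shares of keratinocytes with a UMI under other settings, 20 moved beyond their interval and 4 did not, and of the shares of UMIs in the highest cluster 27 and 9. At Leiden resolution 0.5 the control share of Krt6b in its highest cluster was 51.0% in place of 63.5% and the GOF share 81.8% in place of 70.0%. Depth limits Defb3, with 24 control UMIs. No paired analysis was possible because each genotype has 1 library.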
